A study of Mus musculus with 11 samples.

Results

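Vascular smooth muscle cells (VSMCs) of the mouse liver were compared between uninjured animals and animals given carbon tetrachloride (CCl4), a hepatotoxin, for 6 weeks. The cells were chosen by their measured UMIs of 7 genes in a pair of 10X Chromium libraries. A cell was taken when its unique molecular identifiers (UMIs, each standing for 1 captured mRNA) of Acta2, Tagln, Myh11 and Tpm2 summed to at least 10 and those of the fibroblast (FB) genes Cd34, Clec3b and Dpt summed to at most 3. Cells also needed at least 300 genes and at most 30% mitochondrial UMIs. The rule took 1528 of 5737 cells that passed in the uninjured library and 2670 of 5648 in the 6-week library, 4198 of 11385 in all, out of 31018 barcodes in the 5 libraries of the series. These 7 selecting genes are not reported as results.

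Each library was made from a pool of 3 mice. All animals were adult males of the Pdgfrb-BAC-eGFP reporter strain on a C57BL/6 background, in which PDGFRβ-expressing cells carry GFP, and the CCl4 animals had repeated intraperitoneal injections. In both conditions livers were rinsed through with PBS, cut up and digested with pronase, collagenase B and DNase, and GFP-positive cells lacking CD45 and CD102 were sorted. The reporter and the sort limit the comparison to cells that express the reporter and survive digestion. With 1 library per condition there is no replicate, so the 10X cells allow no test of the treatment, and every interval on them covers counting error only. Separate plates of Smart-seq2, full-length sequencing of sorted wells without UMIs, held cells of both conditions and gave a replicated test, described with the results it bears on.

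VSMCs wrap arteries, veins and portal vessels and set their calibre through actin and smooth muscle myosin, driven by calcium that is released from internal stores and admitted through the membrane. Pericytes are the related mural cells of the smallest vessels. They carry less contractile protein and express genes such as Rgs5, a regulator of G protein signalling, and Higd1b. Hepatic stellate cells, the pericytes of the sinusoids, are the cells best known for making scar in the injured liver, and VSMCs of the same liver are less often described.

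The selected cells carried the mRNA of smooth muscle that the rule had not used. Des, an intermediate filament of muscle, stood at 1900 UMIs per 1000000 UMIs (CPM) in the uninjured and 1700 CPM in the 6-week cells, against 70.5 and 128 CPM in FBs of the same libraries. The authors report Des at varying levels across the mesenchymal populations of the liver, stellate cells included, so Des is no mark of smooth muscle alone. Lmod1, an actin nucleator of smooth muscle, stood at 1100 and 1010 CPM. Markers of stellate cells are given below. Cells near the edges of the rule were few in the uninjured library. There, 23 cells held 10 to 14 UMIs of the selecting muscle genes and 33 cells held 5 to 9 with few FB UMIs, while 1488 held 20 or more. In the 6-week library these numbers were 43, 39 and 2577. On the FB side, 1744 of the 6-week cells carried 1 to 3 FB UMIs and 187 muscle cells were lost with 4 to 6, against 700 and 23 in the uninjured library.

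The libraries differed in depth and mixing. The median selected cell had 3182.5 UMIs in the uninjured and 4380 in the 6-week library, for 4887123 and 11643434 UMIs in all, and mitochondrial UMIs took 4.54% and 4.66%. Cells over both limits, with muscle and FB mRNA together, were 3.38% and 22.6% of passing cells and were left out. Among the selected, 0.654% and 3.11% were called doublets. The libraries shared 45 barcodes, 8 of them selected in both. FBs, taken as cells with over 3 FB UMIs and fewer than 10 of the muscle genes (3854 and 1633 cells), still held 443 and 1070 CPM of the selecting muscle genes. Marker lists of endothelial cells, leucocytes, hepatocytes, cholangiocytes and mesothelial cells summed to between 0.614 and 18.6 CPM in the selected cells, with Laptm5 and Epcam at 0 in both libraries and Ptprc and Cdh5 at 0 at 6 weeks. The 5 markers of Schwann cells summed to 22.9 and 28.1 CPM, mostly Cnp. The 8 FB markers left after the selecting genes summed to 683 and 749 CPM, against 10100 CPM in the FBs of either library. The 8 stellate cell markers summed to 1650 and 4730 CPM, most of it Rgs5, which is described with the mural genes. Lrat stood at 1.84 and 1.89 CPM and Reln at 0.614 and 0 CPM, while Ecm1 stood at 273 and 375 CPM and Pth1r at 61.4 and 52.8 CPM. Of 5 stellate cell markers at 20 CPM or more, 3 were at least 1.5-fold higher at 6 weeks and none lower. Over all genes tested these shares were 7.78% and 2.49%. The 3 were Rgs5, Colec11 (49.1 and 79.4 CPM) and Hgf (9 and 20.1 CPM). The median ratio was 1.62 over all selected cells, and 1.49 and 1.01 in the pericyte-type and contractile-type cells described below. The part of depth, mixing and RNA from other cells in the differences was not tested beyond the alternatives given with them.

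Of 5781 genes at 20 CPM or more in the higher library, 450 were at least 1.5-fold higher at 6 weeks, which is 7.78%, and 144 were at least 1.5-fold lower, 2.49%. Counts of higher and lower genes within lists are to be read beside these shares. The higher genes included the pericyte genes Rgs5 and Higd1b, the metallothioneins Mt1 and Mt2, complement C3 and the clock genes Nr1d1 and Dbp, and the lower genes included Rrad and Pln. None of the 22 contractile genes tested, a list without the selecting genes, differed by 1.5-fold. A trimmed mean scaling (TMM) of the libraries changed the split to 356 higher and 202 lower, that is from 75.8% to 63.8% higher. The median gene had a log2 ratio of 0.05.

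**Figure D1:**
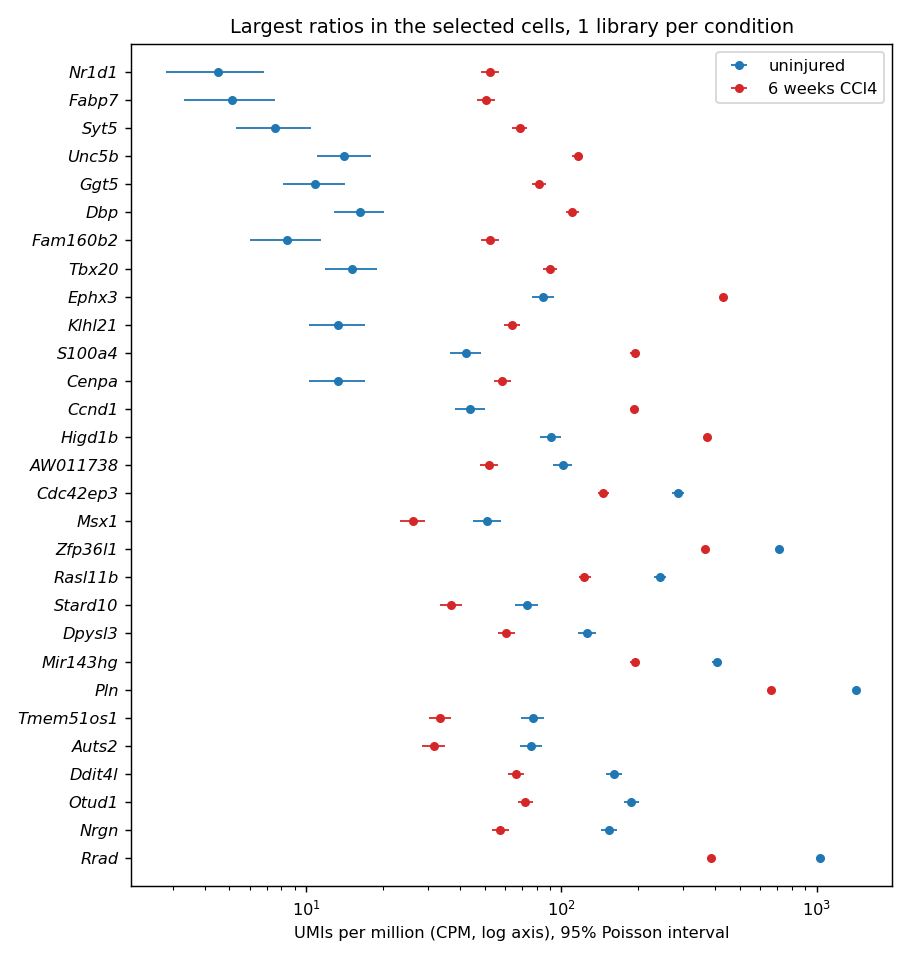
CPM in the selected cells of the uninjured (blue) and 6-week CCl4 (red) library, on a log axis with 95% Poisson intervals, for genes of largest ratio each way at 50 CPM or more, 14 higher and 15 lower. Nr1d1 runs from 4.5 to 52.5 CPM and Rrad from 1030 to 384 CPM, and no pair of intervals touches.

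The selected cells were not alike. A list of 6 pericyte genes (Rgs5, Higd1b, Cox4i2, Ndufa4l2, Kcnj8 and Abcc9) was set against 7 contractile genes (Cnn1, Pln, Lmod1, Ldb3, Synpo2, Actg2 and Casq2), and each cell was thinned to 2000 UMIs. In the uninjured library 311 of 1395 cells had more pericyte than contractile UMIs, 22.3% (95% interval 20.1% to 24.6%, exact binomial), and at 6 weeks 1215 of 2399, 50.6% (48.6% to 52.7%). Shallower cells, 133 and 271, were left out, and without thinning the shares were 22.6% and 52.5%. This is a division along a range, since 16.6% and 17.2% of cells lay within 2 UMIs of equal. The genes that set it themselves differed between the libraries, so the shares are no count of a cell type. More pericytes and more pericyte mRNA per cell cannot be told apart by it. Ratios of these 13 genes taken inside the types are bound by the division in the same way, and are given as levels that show nothing about how the genes differ. Pericyte-type and contractile-type cells are named here for the side of this line on which they fell, as sequenced.

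Every ratio was therefore also taken inside each type. Of the 450 higher genes, 342 were at least 1.5-fold higher among pericyte-type cells, 295 among contractile-type cells and 238 in both. Over all 5781 genes tested these numbers were 618 (10.7%), 347 (6%) and 248. Of the 144 lower genes, 105, 73 and 60 were lower in the same way, beside 238 (4.12%), 102 (1.76%) and 64 over all genes tested. Both sets were picked by their ratio over these same cells, so such counts are no independent support for them. When pericyte-type UMIs were weighted to their uninjured share in both libraries, 321 genes were higher and 104 lower. FBs of the same libraries are a different cell handled in the same tubes. In them 178 of the 450 higher genes were at least 1.5-fold higher as well, 39.6% against 7.23% of all genes tested. Of the 144 lower genes 28 were lower there, 19.4% against 1.33%. These FBs held 443 CPM of the selecting muscle genes in the uninjured and 1070 CPM in the 6-week library. How much of the overlap was mRNA carried over from muscle was not tested.

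**Figure D2:**
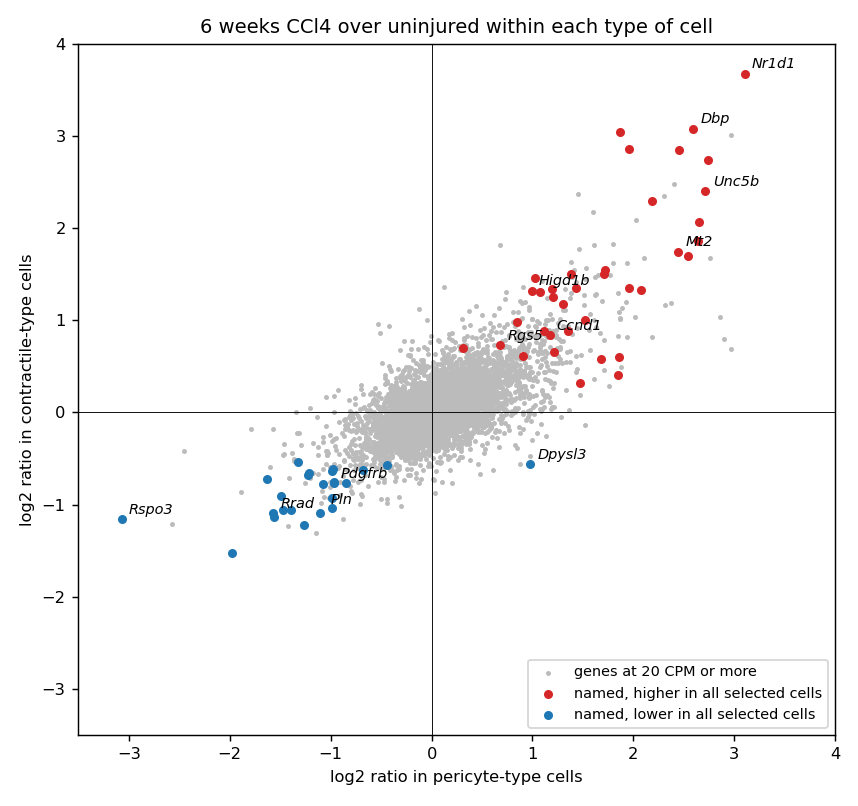
The log2 ratio of 6 weeks CCl4 over uninjured in pericyte-type cells (x) and contractile-type cells (y), 1 point per gene at 20 CPM or more, with named genes higher (red) or lower (blue) over all selected cells. Named genes fall in the same quadrant in both types except Dpysl3, which is higher in pericyte-type and lower in contractile-type cells, and Rgs5, Higd1b, Casq2 and Pln are among the genes that set the types.

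The pericyte genes held the most abundant of the higher mRNAs. Rgs5 (chromosome 1, 169655501 to 169695813, GRCm38), which shortens signalling by vasoconstrictor receptors, stood at 1260 CPM in the uninjured cells and 4200 CPM at 6 weeks, a ratio of 3.34 (3.26 to 3.43). Rgs5 itself sets the types, so a smaller ratio inside them follows from the division. Pericyte-type cells had 4770 and 7630 CPM, a ratio of 1.60, and contractile-type cells 318 and 527 CPM, a ratio of 1.66. In FBs, Rgs5 went from 12.3 to 116 CPM, a level outside the selected cells that was also higher at 6 weeks. Higd1b, a mitochondrial protein of pericytes, stood at 90.9 and 373 CPM (ratio 4.10, 3.72 to 4.53). Ndufa4l2, a relative of a respiratory chain subunit, stood at 439 and 814 CPM. Of the 20 mural genes on the list, all were tested, 5 were higher (Rgs5, Higd1b, Steap4, Ndufa4l2 and Abcc9) and 1 lower, with a median ratio of 1.16 against 1.03 over all genes tested. The lower one was Pdgfrb, whose promoter drives the reporter, at 260 and 173 CPM (ratio 0.665, 0.620 to 0.714). It was as much lower in FBs, 183 against 116 CPM.

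On the plates Rgs5 was not clearly different, and the spread was too wide to tell its 10X ratio from none. Wells were taken by the same genes, at 2000 reads per 1000000 (RPM) or more for the muscle and 600 or less for the FB genes, and summed by mouse label and plate. This gave 4 CCl4 portions with 22 to 91 wells and 6 uninjured portions with 34 to 71 wells, of which 2 shared their plates with CCl4. The CCl4 animals carry the same pair of labels on both plates and may be the same animals, and the labels do not say whether animals of the plates and of the 10X pools were shared, so p-values measure the spread between portions. Rgs5 stood at 1770, 8030, 1940 and 2140 RPM in the CCl4 portions. In the uninjured portions it stood at 1960 and 2920 RPM on the same plates and at 1110, 1680, 6790 and 1380 RPM on the others. A single portion stood far above the rest in each condition, and the groups overlapped. The share of pericyte-type wells, which Rgs5 helps to set, ran from 17.8% to 62.6% over CCl4 and from 7.69% to 52.1% over uninjured portions. The log2 fold change of Rgs5 was 0.32 ± 0.63 (SE), and that of Pdgfrb 0.10 ± 0.23 (both adjusted p = 1, edgeR's quasi-likelihood test with Benjamini-Hochberg adjustment over 13111 genes). Without the second CCl4 portion the value for Rgs5 was -0.34, and without the first uninjured portion -0.49.

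**Figure D3:**
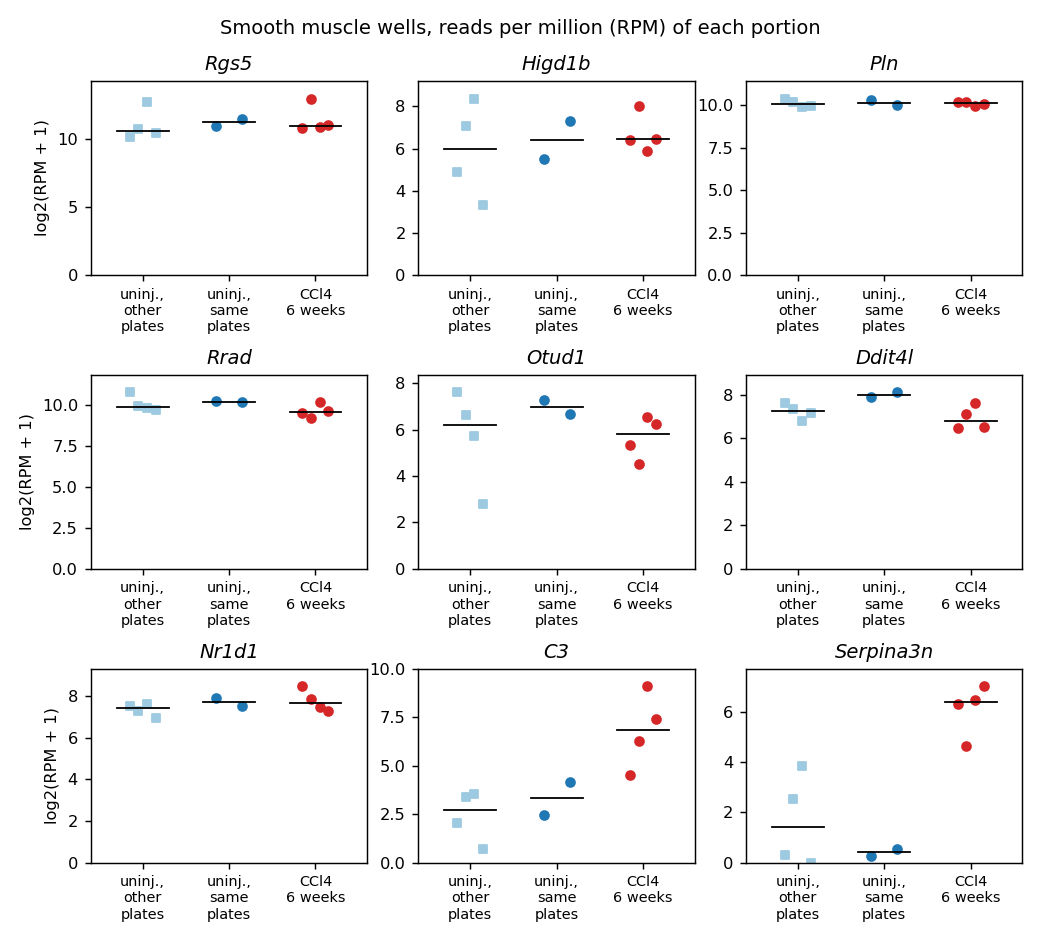
RPM of 9 genes on a log2(RPM + 1) axis, 1 point per portion of smooth muscle wells, for uninjured portions on plates without CCl4 (squares), uninjured portions on the plates shared with CCl4 (blue) and CCl4 portions (red), with bars at the median. Only C3 and Serpina3n of these genes have all 4 CCl4 portions above all 6 uninjured portions.

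Several genes of largest ratio were also more abundant in pericyte-type cells. Fabp7, a fatty acid binding protein best known in glia, stood at 5.12 and 50.5 CPM (ratio 9.87, 6.62 to 15.4). Syt5, a calcium sensor of vesicle fusion, stood at 7.57 and 68.6 CPM (9.06, 6.52 to 13.0). Ephx3, an epoxide hydrolase, stood at 84.9 and 430 CPM (5.07, 4.58 to 5.61). Within types these ratios were 4.20 and 2.51 for Fabp7, 5.81 and 3.24 for Syt5, and 2.61 and 2.84 for Ephx3, in pericyte-type and contractile-type cells in that order. Ccnd1 (cyclin D1, which drives cells out of G1) stood at 44.0 and 193 CPM (4.39, 3.82 to 5.08), with 2.25 and 1.79 within types. For each of these 4 genes, the ratio was smaller within either type than over all cells and above 1.5 in both. For Fabp7 in contractile-type cells (0.531 and 2 CPM) the ratio was set by a floor of 3 UMIs. Its interval of 0.821 to 34.9 includes 1.

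Unc5b, a receptor for netrins that guides growing vessels, was more abundant in pericyte-type cells too. In the uninjured library these had 26.7 CPM and contractile-type cells 9.83 CPM. Over all selected cells Unc5b stood at 14.1 CPM in uninjured and 116 CPM in 6-week cells (ratio 8.22, 6.45 to 10.6). Its ratios were 6.56 in pericyte-type and 5.29 in contractile-type cells. Tbx20, a T-box transcription factor known from heart development, stood at 15.1 and 90.1 CPM (5.95, 4.70 to 7.64) with 6.28 and 4.19 within types. Ggt5, which converts leukotriene C4, stood at 10.8 and 81.6 CPM (7.52, 5.70 to 10.1), with 3.66 and 8.27. In FBs the ratios were 2.75 for Unc5b, 3.51 for Tbx20 and 1.60 for Ggt5. Klhl21, an adaptor of a ubiquitin ligase, had ratios of 4.83 in the selected cells and 4.54 in FBs, and Fam160b2 6.28 and 4.55, so these were of similar size in both cell types. S100a4, a calcium-binding protein, stood at 42.2 and 194 CPM (4.60, 3.99 to 5.33). Cenpa, the histone of the centromere, stood at 13.3 and 58.7 CPM (4.42, 3.42 to 5.79), with 3.62 among pericyte-type and 1.52 among contractile-type cells. On the plates none of these genes had CCl4 portions apart from the uninjured ones. The values of Unc5b were 13.6 to 118 RPM against 8.83 to 88.9 RPM (log2 fold change 1.30 ± 1.01) and those of S100a4 were 89.2 to 219 RPM against 13.2 to 323 RPM (1.81 ± 0.81).

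Contractile genes other than the selecting ones were close to even. Cells were taken by mRNA of this same apparatus, so cells that had lost it would be missed. All 22 genes of the list were tested and none reached 1.5-fold, with a median ratio of 0.924 against 1.03 over all genes tested. The lowest was Ldb3, a Z-disc protein, at 0.736 and the highest Actn1 and Cald1 at 1.09. Cnn1 (calponin, which binds actin) stood at 777 CPM in the uninjured and 618 CPM in the 6-week cells (0.795, 0.765 to 0.828). Inside the types the list's medians were 1.02 in pericyte-type and 1.04 in contractile-type cells, but Cnn1, Lmod1, Ldb3, Synpo2 and Actg2 of this list also set the types. On the plates Cnn1 stood at 806 to 1860 RPM against 754 to 1510 RPM. The regulators of the contractile programme were similarly even. Myocd stood at 27.8 and 24.2 CPM, Srf at 26.8 and 29.3 CPM and Mef2c at 619 and 615 CPM, and of 19 regulators tested 1 was higher (Mkl2, 1.73) and 1 lower (Foxc1, 0.652).

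**Figure D4:**
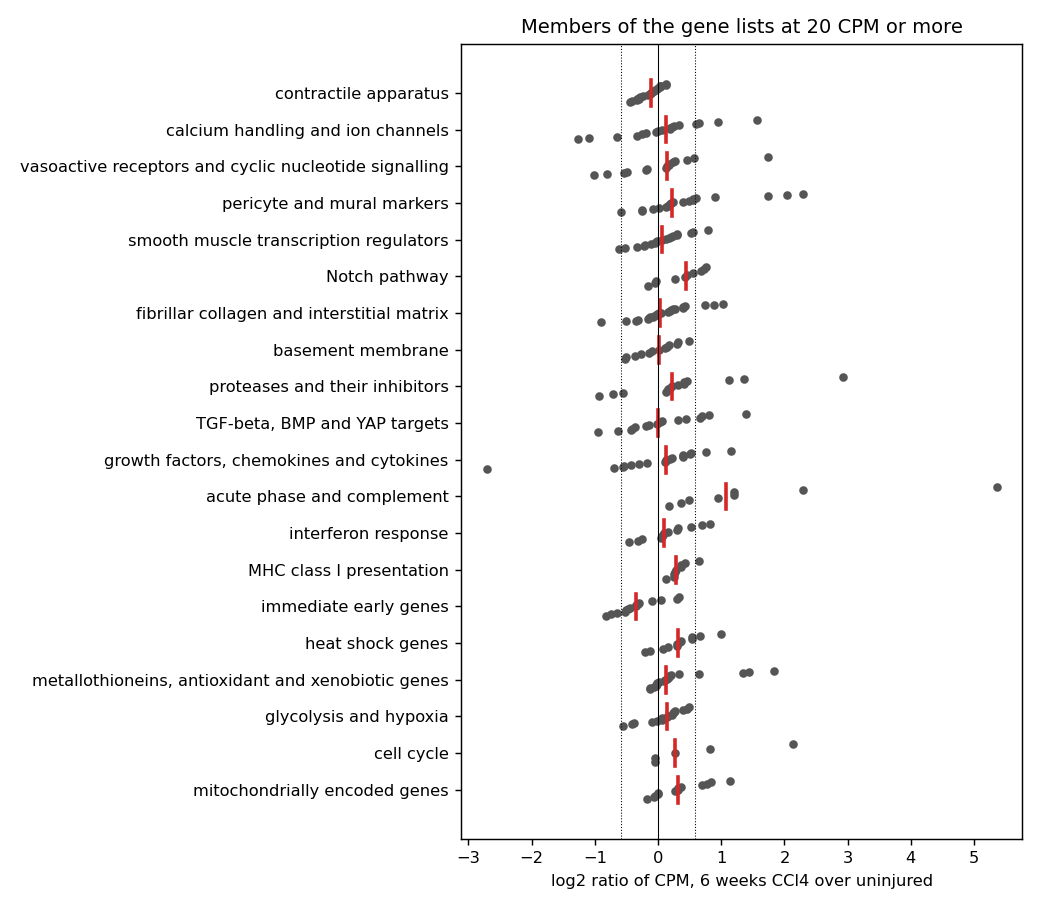
The log2 ratio of CPM, 6 weeks CCl4 over uninjured, of each gene at 20 CPM or more in 20 lists, 1 point per gene, with the list's median in red and dotted lines at 1.5-fold. The contractile apparatus lies inside the dotted lines, acute phase and complement genes lie furthest to the right, and immediate early genes lie mostly to the left. The point furthest right is Saa3, which is at 0 in the uninjured library and was set to a floor of 3 UMIs.

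Calcium handling held large ratios in both directions. Pln (phospholamban, chromosome 10, 53337667 to 53345987), which restrains the calcium pump of the sarcoplasmic reticulum, stood at 1420 and 663 CPM (0.467, 0.452 to 0.483). Pln is among the genes that set the types, and its levels in contractile-type cells were 1590 and 926 CPM. In FBs, Pln stood at 14.2 and 27.5 CPM, and how much of this was mRNA carried over from muscle was not tested. Casq2, the calcium store protein of the reticulum, stood at 45.4 and 135 CPM (2.96, 2.57 to 3.43). It had been put among the contractile genes and was more abundant in pericyte-type cells, 120 against 25 CPM in the uninjured library. Kcnma1, the pore of the calcium-activated potassium channel, stood at 23.7 and 9.88 CPM, while its smooth muscle subunit Kcnmb1 stood at 105 CPM in both. Ano1, a calcium-activated chloride channel, stood at 34.6 and 67.1 CPM. Of 18 genes tested 4 were higher and 3 lower, with a median of 1.09. On the plates Pln was even, at 980 to 1160 RPM in CCl4 and 951 to 1330 RPM in uninjured portions (log2 fold change -0.04 ± 0.19).

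Of 15 genes of vasoactive signalling tested, 1 was higher, the Rgs5 already described, and 2 were lower, with a median of 1.1, beside 7.78% higher and 2.49% lower over all genes. Calcrl, the receptor of adrenomedullin and CGRP, stood at 20.7 and 10.2 CPM and Adra1a, an adrenergic receptor of vasoconstriction, at 38.9 and 22.2 CPM. Ramp1, the partner of Calcrl in the CGRP receptor, stood at 580 and 398 CPM, a ratio of 0.686. Ednra, the endothelin receptor of muscle, was near even at 81.6 and 92.2 CPM.

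The lower genes were led by Rrad (chromosome 8, 104628070 to 104631327), a small GTPase that holds back voltage-gated calcium channels. It stood at 1030 CPM in uninjured and 384 CPM in 6-week cells (0.373, 0.358 to 0.388), and was lower in pericyte-type (0.337) and contractile-type cells (0.469) alike, while FBs had 36.7 and 37.2 CPM. Nrgn (neurogranin, which binds calmodulin) stood at 154 and 57.7 CPM (0.376, 0.338 to 0.417). Otud1, a deubiquitinase, stood at 188 and 72.2 CPM (0.383, 0.349 to 0.421), and Ddit4l, an inhibitor of mTORC1, at 161 and 66.5 CPM (0.412, 0.373 to 0.456). FB ratios of the latter were 1.09 and 0.811, nearer to 1 than those of muscle, and this difference between cell types was not tested. Mir143hg, the host transcript of the microRNAs miR-143 and miR-145 of smooth muscle, stood at 407 and 194 CPM (0.476, 0.448 to 0.506). Zfp36l1, which speeds the decay of AU-rich mRNAs, stood at 715 and 364 CPM (0.510, 0.487 to 0.533).

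Most of the other lower genes kept their direction within types. Auts2, Tmem51os1, Stard10, Rasl11b, Msx1, Cdc42ep3 and AW011738 had ratios between 0.416 and 0.513 over all cells, and all were below 1 in both types. Cdc42ep3, an effector of the GTPase Cdc42, came closest to even within types, at 0.738 and 0.672. Dpysl3, a protein of the cytoskeleton, was the exception. It stood at 126 and 60.8 CPM over all cells (0.484), at 158 and 107 CPM in contractile-type cells, and at 9.91 and 19.5 CPM in pericyte-type cells, a ratio of 1.97.

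On the plates some of the leading lower genes stood lower in CCl4 without standing apart, and others did not. Rrad stood at 731, 603, 1200 and 799 RPM in the CCl4 portions, against 1220 and 1170 RPM in the uninjured portions of the same plates and 855 to 1770 RPM in all 6 (log2 fold change -0.55 ± 0.26). Ddit4l stood at 86.1, 137, 193 and 89.6 RPM against 235 and 273 RPM on the same plates and 109 to 273 RPM in all 6 (-1.0 ± 0.34). Otud1 stood at 40, 22.2, 93.4 and 76.0 RPM against 155 and 100 RPM on the same plates (-1.39 ± 0.53), but an uninjured portion on another plate had 6.03 RPM. Tmem51os1 stood at 12.2, 31.4, 16.1 and 16.7 RPM against 49.1 and 45.7 RPM on the same plates and 16.5 to 60.1 RPM in all 6 (-1.32 ± 0.53). Nrgn stood at 5.63, 8.94, 11.1 and 1.16 RPM against 22.7 and 18.6 RPM on the same plates and 1.83 to 22.7 RPM in all 6 (-1.61 ± 1.04). Each of these genes was thus lower than both uninjured portions of these plates in at least 3 of the 4 CCl4 portions. The ranges overlapped once the other plates were counted. Without the first uninjured portion the log2 fold change of Otud1 was -0.21 and that of Rrad -0.20. Among the others, Mir143hg had -0.05, AW011738 0.18 and Auts2 1.61. None of these passed edgeR's quasi-likelihood test after adjustment (adjusted p = 1 for each).

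Immediate early genes, which are transcribed within minutes of a stimulus and also on digestion of tissue, were abundant in both libraries. Fos stood at 6280 and 4960 CPM (0.789, 0.779 to 0.8) and Junb at 3250 and 2340 CPM (0.722, 0.708 to 0.737). Of 15 tested genes, 3 passed 1.5-fold, all lower. They were Btg2 at 1610 and 915 CPM, Fosb at 519 and 310 CPM and Ier2 at 1010 and 642 CPM. Nr4a1, Myc and Jund had ratios above 1, at 1.23, 1.26 and 1.03. The list's median ratio was 0.786, and it was 0.682 in pericyte-type cells, 0.838 in contractile-type cells and 0.904 in FBs. On the plates 16 of the 17 genes had a log2 fold change below 0, against 50.1% of all genes tested in 10X, with a median of -0.31, and none was called. Heat shock genes went the other way in part. Hspa5, the chaperone of the endoplasmic reticulum, stood at 204 and 405 CPM (1.99, 1.86 to 2.13) and at 596 and 1030 CPM in FBs, while Hspa1a stood at 216 and 186 CPM. Digestion of the fibrotic and the healthy liver and the state of the cells before it cannot be told apart here.

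Matrix genes gave a mixed picture with small ratios. Col1a1 and Col1a2, the chains of type I collagen, stood at 126 and 145 CPM (1.15, 1.04 to 1.26) and at 185 and 245 CPM (1.32, 1.23 to 1.43). Col3a1 stood at 257 and 255 CPM (0.992, 0.928 to 1.06), and Col4a1 of the basement membrane at 113 and 105 CPM (0.933, 0.843 to 1.03). FBs carried far more, with 1480 and 1820 CPM of Col1a1 and 3170 and 3040 CPM of Col3a1. How much of the matrix mRNA in the selected cells came from FBs was not tested. The rule also left out cells with muscle and FB mRNA together, 3.38% of passing cells in the uninjured and 22.6% in the 6-week library. Matrix mRNA of muscle cells among those is missing from these ratios. Of 24 fibrillar and interstitial genes tested, 3 were higher and 1 lower, with a median of 1.02, near the 1.03 of all genes tested. The higher were Col6a1 at 53.0 and 108 CPM (2.03, 1.78 to 2.33), Col6a2 at 56.7 and 95.5 CPM and Fbln1 at 67.1 and 124 CPM, and the lower was Ogn, a small proteoglycan, at 304 and 163 CPM. Type VI collagen lies at the surface of muscle cells, and Col6a1 was also higher in FBs, 600 against 907 CPM. None of the 13 basement membrane genes tested passed 1.5-fold. For the fibrillar and interstitial list, 24 of 33 genes had a plate log2 fold change above 0, against 49.9% of all genes tested in 10X. Their median was 0.44 and none was called. On the plates Col1a1 stood at 345 to 1150 RPM in CCl4 and 67.1 to 605 RPM in uninjured portions (log2 fold change 0.73 ± 0.64), and Col3a1 at 633 to 2440 RPM against 261 to 1880 RPM.

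Proteases of the ADAMTS family, which cut proteoglycans and procollagen, stood on both sides. Adamts9 stood at 3.07 and 23.2 CPM (7.56, 4.50 to 13.7), Adamts4 at 9.41 and 24.2 CPM and Adamts2 at 24.1 and 52.6 CPM (2.18, 1.79 to 2.68). Adamts5 went the other way, from 180 to 94.0 CPM, and Adamts1, the most abundant, stood at 494 and 551 CPM (1.12). Of 15 proteases and inhibitors tested, 3 were higher and 2 lower, with a median of 1.16. Of 17 fitted on the plates, 13 had a log2 fold change above 0, against 49.9% of all genes tested in 10X. The median was 0.56 and none was called. Timp1, the metalloproteinase inhibitor that rises in injured liver, was near the floor in both libraries, at 6.14 and 8.76 CPM, and Spp1 (osteopontin) had 0 and 2 UMIs. On the plates Timp1 stood at 12.3 to 528 RPM in CCl4 and 0.0794 to 16.7 RPM in uninjured portions (log2 fold change 5.07 ± 1.58, adjusted p = 1, edgeR's quasi-likelihood test), a value that was 3.23 without the third CCl4 portion and 0.44 when wells were taken at 5000 RPM of the muscle genes. A single well held 98.5% and 97.2% of the Timp1 reads in the second and the third CCl4 portion.

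Among growth signals, genes of BMP and TGF-β signalling stood higher and lower. Smad6, a feedback inhibitor of BMP signalling, stood at 31.5 and 82.3 CPM (2.61, 2.20 to 3.12), and its ratio was 3.60 in pericyte-type and 1.33 in contractile-type cells. The ligand Bmp2 stood at 83.9 and 43.2 CPM and the receptor Tgfbr1 at 22.3 and 14.3 CPM, while Tgfb2 stood at 44.4 and 71.7 CPM and the TGF-β target Ctgf at 26.0 and 41.2 CPM. Of 16 genes tested 4 were higher and 2 lower, with a median of 1.01. In the Notch pathway, by which endothelium instructs mural cells, 3 of 10 tested genes were higher, beside 7.78% over all genes, and none lower, with a median of 1.36. They were the ligand Jag1 (143 and 229 CPM) and the targets Nrarp (280 and 467 CPM) and Heyl (184 and 311 CPM), and the receptor Notch3 stood at 245 and 360 CPM (1.47, 1.37 to 1.56). The targets Hes1, Hey2 and Hey1 had ratios of 0.894, 0.978 and 1.21. The Notch list's medians within types were 1.1 and 1.05, nearer to even. On the plates 8 of 12 Notch genes had a log2 fold change below 0, against 50.1% of all genes tested in 10X. Their median was -0.18 and none was called. Igfbp5, which binds insulin-like growth factors, stood at 692 and 425 CPM (0.614, 0.587 to 0.641), Pgf at 133 and 226 CPM and Hgf at 9 and 20.1 CPM. Rspo3, a Wnt agonist, had 140 UMIs in the uninjured and 51 in the 6-week cells, but 66.4% of the former came from 5 cells and 32 UMIs from 1, so its level rests on few cells.

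Acute phase and complement genes had the highest median of the 20 lists in the plot of list members, 2.12 over 8 tested genes. Of these, 5 were higher and none lower, beside 7.78% higher and 2.49% lower over all genes. C3, the central complement protein, stood at 49.3 and 95.2 CPM (1.93, 1.68 to 2.23), with 2.16 in pericyte-type and 1.84 in contractile-type cells. C4b, another complement protein, stood at 14.3 and 33.1 CPM (2.31, 1.79 to 3.02). FBs held far more of these mRNAs, for C3 670 and 980 CPM, and their ratios were 1.46 for C3 and 1.46 for C4b. FB markers summed to 683 and 749 CPM in the selected cells, and how much of the complement mRNA came from FBs was not tested. Steap4, a metalloreductase, stood at 8.39 and 41.3 CPM. Saa3, an acute phase protein, had 0 and 294 UMIs, but 274 of these came from 1 cell, so its level speaks for that cell. It is counted among the 5 higher genes and in the list's median.

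On the plates this list had a median log2 fold change of 1.89, with 12 of 15 genes above 0, against 49.9% of all genes tested in 10X. C3 was at 22.1, 75.9, 546 and 171 RPM in the CCl4 portions, against 4.51 and 16.9 RPM in the uninjured portions of the same plates and 0.635 to 16.9 RPM in all 6 (log2 fold change 3.91 ± 0.76). C4b stood at 22.9, 10.3, 75.2 and 11.8 RPM against 0.401 to 9.26 RPM (3.48 ± 1.28). Serpina3n, an acute phase inhibitor of proteases on chromosome 12 at 104406729 to 104414329, stood at 78.5, 24.2, 87.9 and 130 RPM against 0 to 13.6 RPM (7.94 ± 0.82), and Hp (haptoglobin, which binds free haemoglobin) at 6.42 to 173 RPM against 0 to 5.71 RPM (6.33 ± 1.21). These log2 fold changes are against the portions of the same plates, where Serpina3n stood at 0.201 and 0.461 RPM, and against all 6 the value of Serpina3n was 4.66. For these 4 genes, which were picked out after their values were seen, every CCl4 portion lay above every uninjured portion. Over all 13111 genes this held for 71, or 0.542%, and the reverse for 52, or 0.397%. The adjusted p of edgeR's quasi-likelihood test was 0.302 for Serpina3n and 1 for the others, and with the filter on low counts left out Serpina3n, C3, Hp, Timp1 and Cyp4b1 passed. Single wells carried much of this. A single well held 80.8% to 97.8% of the Hp reads in each CCl4 portion, up to 95.3% of the Serpina3n reads and up to 94.3% of the C3 reads. In the 10X cells Serpina3n stood at 3.48 and 7.99 CPM and Hp at 0.614 and 1.63 CPM, both far below 20 CPM.

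Metallothioneins, which bind zinc and copper and respond to metals, glucocorticoids and oxidants, were higher in the selected cells and in FBs. Mt1 stood at 149 and 402 CPM in the selected cells (2.70, 2.50 to 2.92) and Mt2 at 22.7 and 81.4 CPM (3.58, 2.94 to 4.40). The ratios were 3.30 and 2.91 within types for Mt1, and FBs had 967 and 1970 CPM of it. Txnrd1, a thioredoxin reductase, stood at 13.3 and 33.8 CPM (2.54, 1.95 to 3.36). Gpx3, a secreted glutathione peroxidase that is abundant in FBs, stood at 168 and 262 CPM (1.56, 1.44 to 1.68). FBs had 2750 and 3180 CPM of Gpx3, and their part in its level in the selected cells was not tested. The list of 20 tested genes had a median of 1.09, with these 4 higher and none lower. On the plates Mt1 stood at 107 to 711 RPM against 160 to 453 RPM (log2 fold change 0.05 ± 0.47). Cdkn1a (p21, an inhibitor of the cell cycle) stood at 170 and 302 CPM (1.77, 1.64 to 1.91), with 2.77 in pericyte-type and 1.25 in contractile-type cells, beside the higher Ccnd1. Mitochondrially encoded genes gave 4 higher of 13, led by mt-Nd3 at 374 and 822 CPM (2.20, 2.09 to 2.31), and mt-Nd3 had a ratio of 2.42 in FBs.

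At 50 CPM or more, the gene of largest ratio belonged to the circadian clock. In this clock Arntl and Clock, bound to E-boxes, switch on Per, Cry, Nr1d1, Nr1d2, Dbp and Ciart. The products of all of these but Dbp, an activator, in turn repress them at other hours. The labels give no hour at which tissue was taken, so hour and treatment cannot be told apart. A list of 19 clock genes was drawn up after the values of Nr1d1 and Dbp had been seen. Of 12 tested genes 6 were higher and 3 lower, beside 7.78% and 2.49% over all genes. Nr1d1 and Dbp are among the 6, so the count is partly set by how the list was chosen. Nr1d1 (chromosome 11, 98767932 to 98775333), a repressor of Arntl, stood at 4.50 CPM in the uninjured and 52.5 CPM in the 6-week cells (11.7, 7.63 to 18.7). Nr1d2, its relative, stood at 2.86 and 21.4 CPM (7.47, 4.37 to 13.9), and Dbp, an output of the clock, at 16.2 and 110 CPM (6.83, 5.44 to 8.69). Per1, Per3 and Cry2, which block Arntl and Clock, had ratios of 2.55, 3.29 and 2.57. Other clock genes stood lower. Arntl stood at 35.2 and 19.6 CPM (0.556, 0.454 to 0.682), Nfil3, which competes with Dbp for its sites, at 37.4 and 14.9 CPM (0.399, 0.322 to 0.494), and Cry1, which represses as Cry2 does, at 27.0 and 12.2 CPM (0.452, 0.354 to 0.577). Cry1 and Cry2 thus stood on opposite sides of 1. Clock itself stood at 51.4 and 47.2 CPM. The directions were the same in both types for each of these genes but Clock.

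FBs of the same libraries differed in the same direction for most of these genes. Their ratios were 33.6 for Nr1d1, 7.21 for Nr1d2, 2.04 for Dbp, 2.30 for Per1, 0.261 for Cry1 and 0.790 for Arntl. They departed for Nfil3, with a ratio of 1.24, and for Per3, with 1.02. Tef had a ratio of 1.49 in the selected cells and 0.708 in FBs. On the plates Nr1d1 stood at 356, 229, 179 and 158 RPM in CCl4 and at 123 to 239 RPM in uninjured portions (log2 fold change 0.10 ± 0.27), so the portions overlapped and the 10X difference was not seen there.

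**Figure D5:**
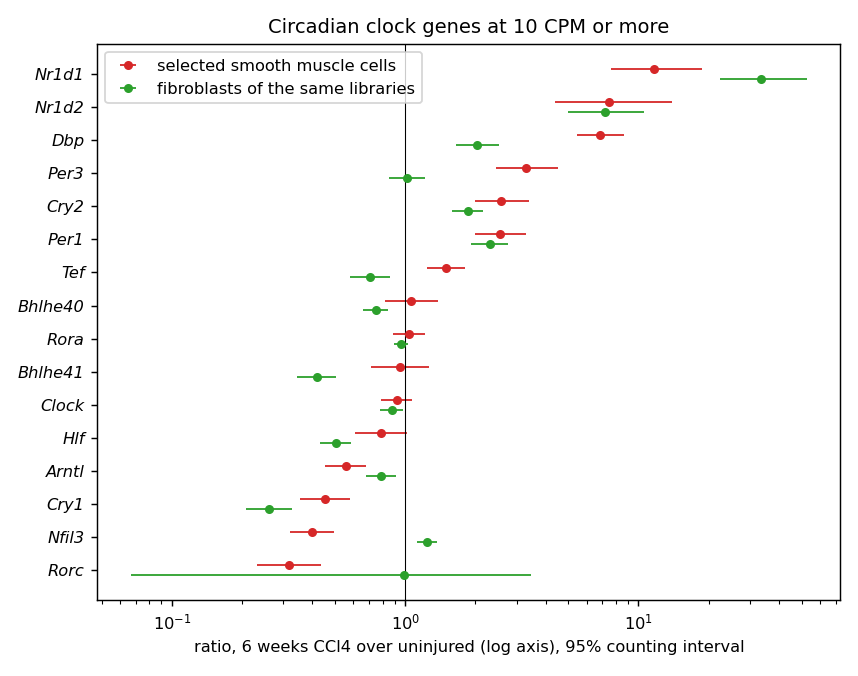
Ratio of 6 weeks CCl4 over uninjured on a log axis with 95% counting intervals, for 16 clock genes at 10 CPM or more, in the selected smooth muscle cells (red) and in FBs of the same libraries (green). Nr1d1, Nr1d2, Dbp, Cry2 and Per1 lie to the right and Arntl and Cry1 to the left in both, while Nfil3 lies on opposite sides.

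E-boxes in the promoters of this group were looked up in RefSeq sequence of GRCm38.p6, from 250 bases before to 50 bases after each start. The letters searched were CACGTG, which read the same on both strands. Of 19 clock genes 16 had a window, and 5 of them (Tef, Per1, Cry1, Ciart and Bhlhe41) held the motif in at least 1 window. Counted by window, it was in 6 of 21 windows of clock genes, 28.6%, and in 7.15% of all 32851 windows. The promoters of Per1 and of Ciart, a repressor that had 3 and 51 UMIs, are shown. Per1 was at least 1.5-fold higher at 6 weeks and holds the motif, and Ciart, which lies under the 20 CPM minimum and was not tested, holds the most copies in the group. The motif is in capitals. The Per1 window lies on the + strand at chr11:69098699-69098998, inside the gene's annotated span of 69095217 to 69109960, and that of Ciart on the - strand at chr3:95882179-95882478, and both are written 5′ to 3′ along the gene.
Per1: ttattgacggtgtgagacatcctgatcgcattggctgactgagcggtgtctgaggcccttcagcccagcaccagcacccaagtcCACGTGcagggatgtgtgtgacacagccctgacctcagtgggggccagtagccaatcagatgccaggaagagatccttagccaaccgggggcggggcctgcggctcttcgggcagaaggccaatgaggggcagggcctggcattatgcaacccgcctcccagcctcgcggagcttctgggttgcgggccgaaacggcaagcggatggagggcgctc
Ciart: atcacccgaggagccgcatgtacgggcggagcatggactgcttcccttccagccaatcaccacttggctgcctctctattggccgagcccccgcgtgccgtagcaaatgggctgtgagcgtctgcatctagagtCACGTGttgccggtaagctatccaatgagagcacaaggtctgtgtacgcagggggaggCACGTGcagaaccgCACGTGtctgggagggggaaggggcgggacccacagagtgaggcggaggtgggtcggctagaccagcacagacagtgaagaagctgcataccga
Ciart has 3 E-boxes in this window and the window of Per1 that is shown has 1. The windows of Nr1d1, Dbp and Nr1d2, the genes of largest ratio among those of the group that were tested, have none. Ciart, on its few UMIs, had a ratio of 7.14 (2.31 to 35.7), above the 6.83 of Dbp. A match is a description of these letters only.

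Across all genes, the plates bore on the 10X differences weakly. Of 450 genes higher in 10X, 432 could be fitted on the plates, and 54.4% had a log2 fold change above 0 against 49.9% of all genes tested in 10X. Of 144 lower genes 133 could be fitted, and 67.7% were below 0 against 50.1%. No gene was called in either direction by edgeR's quasi-likelihood test, 0% of 13111, with 210 higher and 133 lower at an unadjusted p under 0.05. DESeq2 called 56 higher and 8 lower, but only 8 of all the genes it called were tested in 10X. Of those called higher, 3 were at least 1.5-fold higher in 10X, namely Hsph1, Dusp6 and C3. Of all genes tested in 10X, 7.78% were higher by 1.5-fold. None of those called lower was at least 1.5-fold lower in 10X. Both counts rest on these 8 genes at most, and how many of the 8 were called lower is not given. Of the 432 fitted higher genes, 5 had all CCl4 portions above all uninjured ones, namely Stk39, Mafk, C4b, C3 and Ddb1. This held for 26 of the 5611 fitted genes among all those tested in 10X. None of the 133 fitted lower genes had all CCl4 portions below, which held for 28 of the 5611. The common coefficient of variation between portions was 0.886 with 3 residual degrees of freedom. Mafk, a small partner of Nrf2, stood at 37.4 and 74.5 CPM in 10X and at 199 to 228 RPM against 89.5 to 197 RPM on the plates (log2 fold change 0.55). Ddb1, a subunit of a ubiquitin ligase, stood at 36.0 and 78.3 CPM and at 236 to 320 RPM against 175 to 235 RPM (0.25).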

How the data were processed

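Single-cell RNA of sorted hepatic mesenchymal cells was measured in 2 libraries of 10X Chromium (3' v2) and in plates of Smart-seq2. The 10X files, deposited as raw UMI counts, come from alignment to mm10 by Cell Ranger 2.1.0, which also called the cells, as the authors state. For the plates, the authors aligned reads with STAR and deposited read counts per gene and well, counted with rpkmforgenes. Whole numbers throughout were checked in the files. The cells, the gene lists and the tests were chosen with earlier results of these data known.

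UMIs were summed over the selected cells of a library and given per 1000000 UMIs, with exact Poisson intervals, and ratios with exact conditional intervals, all at 95%. Symbols on more than 1 line were left out. For ratios, a count under 3 UMIs in a library was raised to a floor of 3. Doublets were called with Scrublet in scanpy at 0.8% per 1000 cells. Thinned cells held 2000 UMIs.

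Plate wells low in reads or genes or high in spike-in share, by over 3 median absolute deviations, were left out, as were 771 names on more than 1 line, which kept 23719. Portions had 9484137 to 39833244 reads. The 4 CCl4 and the 2 uninjured portions of the same plates were tested with edgeR's quasi-likelihood test with plate as a term, and p-values were adjusted by Benjamini-Hochberg at 0.05. Simulated counts of 13111 genes were used to check the test. Their spread between portions was smaller than in these data, so they do not show how the test performs here.

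Named genes are the 15 of largest ratio each way at 50 CPM or more, without selecting genes, ribosomal proteins and predicted genes, up to 4 members of a list each way with a ratio of at least 2, and Cnn1, Des, Pln, Rgs5, Higd1b, Pdgfrb, Notch3, Col1a1, Col1a2, Col3a1, Col4a1, Timp1 and Spp1. The clock genes and the other genes named, as counts or as members of a list, were chosen after their values were seen. Columns of the other libraries were not used, and some genes that the rule names are not reported here.

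Python 3.11.15, NumPy 2.4.6, pandas 2.3.3, SciPy 1.17.1, scanpy 1.11.5 and matplotlib 3.10.9 were used, with R 4.3.3, edgeR 4.0.16 and DESeq2 1.42.0. Positions are those of GRCm38, and promoters come from RefSeq tables of GRCm38.p6.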

Additional observations from a re-analysis of the deposited data

Results flagged for a closer look

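In 30 groups of 4 or 6 portions, the highest or lowest portion was set against the others. Chance alone marks about 1 group in 20 if values are normally distributed, which was not tested for these RPM. Rgs5 had 1 CCl4 portion at 8030 RPM, with the others at 1770 to 2140 RPM, and 1 uninjured portion at 6790 RPM, with the others at 1110 to 2920 RPM. The same CCl4 portion had 261 RPM of Higd1b, with the others at 58.3 to 87.5 RPM, and 62.6% pericyte-type wells. Serpina3n stood at 13.6 RPM in 1 uninjured portion, with the others at 0 to 4.77 RPM. Hp stood at 173 RPM in 1 CCl4 portion, with the others at 6.42 to 31.3 RPM.

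The 10X ratio of Pln, 6 weeks CCl4 over uninjured, was 0.467 in the selected smooth muscle cells and 1.94 in FBs of the same libraries. FBs held 14.2 and 27.5 CPM of this muscle mRNA, and the difference between the cell types was not tested. Other muscle mRNA was also higher in these FBs, with a median ratio of 1.58 for the contractile list.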

How the results depend on the processing

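With a 2-fold limit 157 genes were higher and 23 lower, and with 50 CPM as the minimum 189 and 71. At 10 CPM 747 were higher. Pericyte-type cells alone gave 286 lower genes, and Dpysl3 then had a ratio of 1.97. Of 38 named genes higher by 1.5-fold, 34 to 38 remained so over 12 alternatives that changed cells or scaling, and of 24 lower 21 to 24. Most of these genes were named for their ratios or values in these same cells, so the counts are no independent support for them. Inside types they also include Rgs5, Higd1b, Casq2 and Pln, which set the types. Of all 450 higher genes, 342 remained so in pericyte-type and 295 in contractile-type cells, and of 144 lower genes 105 and 73. Without the FB limit, at 10000 CPM of the muscle genes, 46.8% of the 6-week cells were pericyte-type. On the plates DESeq2 called 56 genes higher and 8 lower, the fit without a filter on low counts 5 higher, and the others 0. Leaving out each portion in turn gave 0 called genes in either direction each time, and between -0.49 and 1.30 for the log2 fold change of Rgs5, which was below 0 without the second CCl4 portion (-0.34) or the first uninjured portion (-0.49). The cause of these changes was not tested. No pairing of animals was possible because each 10X condition is 1 library and the labels do not tie animals across conditions. The plate test had plate as a term. The depth limits what can be said of genes under 20 CPM, and p-values of the plates cover the spread between portions that may share animals.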
